A study of Mus musculus with 5 samples.

Results

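The peroxisome proliferator-activated receptors (PPARs), the retinoid X receptors (RXRs) and the thyroid hormone receptors are nuclear receptors, transcription factors that bind DNA and respond to small lipophilic ligands. They are encoded by 8 genes, Ppara, Ppard, Pparg, Rxra, Rxrb, Rxrg, Thra and Thrb, which were selected by gene name from a table of 17015 genes measured by RNA-seq in mouse tibialis anterior (TA) muscle. All 8 were present once, were above 0 in every library and passed the minimum mean level of 0.5 FPKM (fragments scaled to transcript length and to library size), and 12148 genes passed it in all. Values are transcript levels, and protein, ligand and DNA binding were not measured here.

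The libraries came from 8-week-old sedentary male mice, with 3 libraries labelled WT control and 2 labelled skmNrip1-/-, and the study's legend for this experiment gives more skmNrip1-/- animals than are analysed here. Mice with a floxed Nrip1 allele on C57BL/6J were bred to a C57BL/6JN myogenin-Cre line, so that Cre recombinase, driven by the promoter of a skeletal muscle differentiation factor, acts on Nrip1 in muscle fibers and leaves the other cells of the tissue with an intact gene. The WT controls were littermates without Cre. Nrip1 encodes RIP140, a coregulator that binds ligand-activated nuclear receptors and mostly represses their target genes. The labels number the libraries and do not tie each to an animal, so p-values measure only the spread between these libraries, which may be technical.

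Nrip1 itself ran against the label. Its level was 4.64, 7.69 and 6.55 FPKM in WT control replicates 1 to 3 and 25.3 and 22.5 FPKM in the libraries labelled skmNrip1-/- (log2 fold change 1.94, SE 0.21, limma adjusted p = 0.0261). It was no longer called without WT control replicate 3 or without either skmNrip1-/- library, with the same direction of levels in all of them. A gene-level value does not show which exons the reads came from, so this does not test the deletion. By the study's methods, the loxP sites flank the exon that holds both the start codon and the stop codon. The study shows Nrip1 transcript and RIP140 protein of this line in gastrocnemius and heart. Why the level here was higher was not tested. Whether labels were exchanged was not tested either, and every direction below, which is that of the libraries labelled skmNrip1-/- relative to WT control, would turn if they were.

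As for the whole table, the summed FPKM ran from 969144 to 1288038 per library, 13 mtDNA-encoded genes took 45.4 to 50.7% of it in WT control and 58.6 and 60.9% in skmNrip1-/-, and the number of reads behind each value is unknown. Fast-fiber markers were abundant in every library, as the labelled tissue requires, but their summed level was 105837, 77206 and 81482 FPKM in WT control and 74898 and 71406 in skmNrip1-/-. Of those 8 markers 1 had a log2 fold change above 0, and their part in the lower RXR and Thra levels below was not tested. The 7 slow-fiber markers summed to 130, 168 and 340 FPKM in WT control and to 142 and 142 in skmNrip1-/-. Their log2 fold changes ran from -1.24 to 3.46, with 4 above 0 and none called, and their part was not tested either. In addition, 5 adipocyte markers passed the level filter without their groups separating. Hemoglobin and the other blood markers summed to 511 to 764 FPKM in WT control and 827 and 996 in skmNrip1-/-. By limma, 55 of 12148 genes were called at an adjusted p of 0.05 and a 1.2-fold change, 45 higher and 10 lower. When each library was rescaled to the same FPKM sum, 29 were called higher and 59 lower.

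PPARs bind DNA as heterodimers with an RXR and are activated by fatty acids and their derivatives. PPARα and PPARδ drive fatty acid uptake and oxidation genes in muscle, whereas PPARγ is best known as the regulator of adipocyte differentiation. RXRs are the shared partners, and bind 9-cis retinoic acid as well as acting silently for some partners. Thyroid hormone receptors also pair with RXR, bind triiodothyronine (T3), repress their targets without hormone through corepressors, and set contractile and metabolic gene programs in skeletal muscle. All of these dimers recognise repeats of the same hexamer, the half-site AGGTCA. PPAR-RXR dimers prefer a direct repeat spaced by a single base and thyroid receptor dimers prefer a spacing of 4 bases.

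That half-site can be seen in the receptor genes' own RefSeq promoter windows (GRCm38.p6, 250 bases before to 50 after each annotated start). Windows were matched for 7 of the 8 genes, 13 windows in all, and 5 of them (38.5%) held AGGTCA on either strand, beside 5340 of 32851 windows (16.3%) over all genes. The genes with a match were Pparg, Rxra, Rxrg and Thrb. Stretches of 30 bases around each match are shown because they are the shared element of the 3 families, with the half-site in capitals and each stretch written 5′ to 3′ on the gene's own (plus) strand. In the first Rxra stretch the half-site lies on the opposite strand and reads TGACCT.
Pparg, chr6:115361104-115361133: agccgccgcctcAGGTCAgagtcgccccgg
Pparg, chr6:115362328-115362357: agggacgcgaggAGGTCAagaaggggcctg
Rxra, chr2:27709193-27709222: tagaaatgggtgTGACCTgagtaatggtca
Rxra, chr2:27709232-27709261: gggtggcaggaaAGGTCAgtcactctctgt
Rxrg, chr1:167618165-167618194: atcggggttgaaAGGTCAgctgaaagcttc
Thrb, chr14:17660764-17660793: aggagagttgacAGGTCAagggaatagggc

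All of these half-sites lie upstream of the start, from -9 for the second Pparg stretch to -184 for Thrb. The perfect direct repeat spaced by 1 base, AGGTCANAGGTCA, was in no member's window and in 13 of all windows (0.0396%), and the repeat spaced by 4 bases, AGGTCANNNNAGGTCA, was in no member's window and in 5 of all windows (0.0152%). No half-site of these letters was in the windows of Ppara, Ppard or Rxrb. A letter match is a description of the window and no binding was measured.

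None of the 8 receptor genes was called in skmNrip1-/- TA, where 0.453% of all tested genes were, 0.37% higher and 0.0823% lower. Their log2 fold changes ran from -0.41 for Rxrg to 0.40 for Ppara, with 4 of the 8 above 0 (49.9% of all genes) and a median of -0.08 beside -0.00 over all genes. Rxra alone, with a lower level, had an unadjusted p of 0.05 or less, beside 11.9% of all genes in either direction and 5.33% on the lower side. In Pparg, Rxra, Rxrg and Thra both skmNrip1-/- libraries lay below all 3 WT control libraries, which is 4 of 8 members against 14.4% of all genes (30.2% in either direction), and no member had both above all controls (15.8%).

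**Figure D1:**
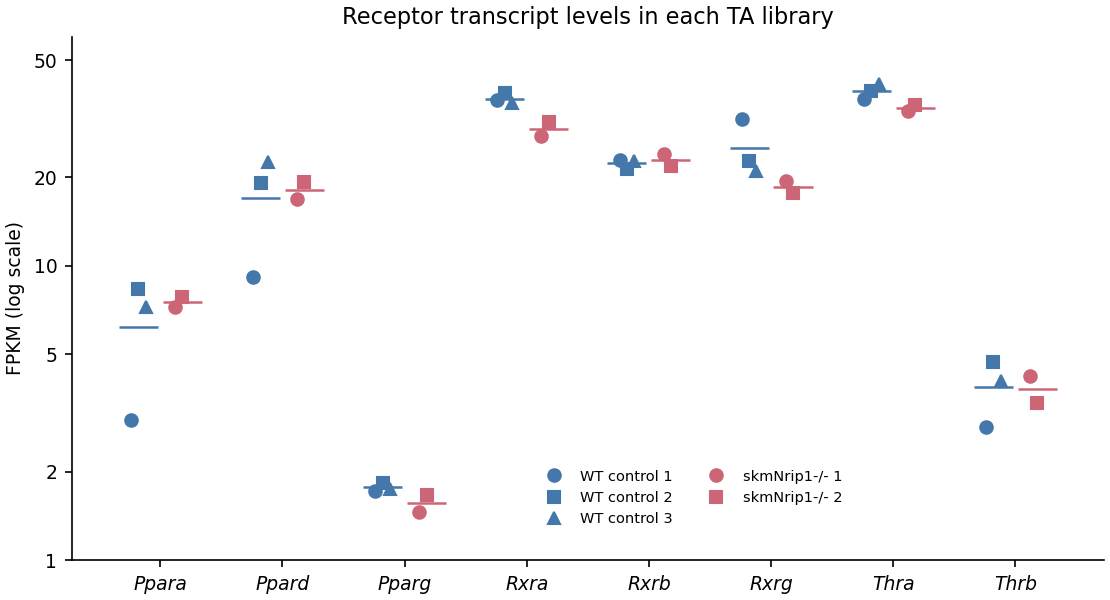
FPKM of the 8 receptor genes in each TA library on a log axis, WT control in blue (n = 3) and skmNrip1-/- in red (n = 2), with a horizontal line at each group's mean. WT control replicate 1 (blue circle) lies well below the other libraries in Ppara and Ppard, and both red points lie below all blue points in Pparg, Rxra, Rxrg and Thra.

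Among the PPARs, Ppara, the fatty acid sensor of oxidative tissues, lies at chr15:85734983-85802819 on the plus strand (GRCm38, GENCODE M21). Its levels were 2.998, 8.36 and 7.22 FPKM in WT control and 7.23 and 7.81 FPKM in skmNrip1-/-. A single control library, WT control replicate 1, was low, and the skmNrip1-/- pair lay inside the range of the controls. The means were 6.19 ± 2.83 (SD, n = 3) and 7.52 ± 0.415 (SD, n = 2) FPKM, and the log2 fold change was 0.40 (SE 0.41, 95% interval -0.58 to 1.38, limma adjusted p = 0.776). Without WT control replicate 1 it was -0.05.

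Ppard, the most abundant of the 3 PPAR genes here and the one studied most in endurance training, lies at chr17:28232700-28301474 (plus strand). It was measured at 9.17, 19.2 and 22.5 FPKM in WT control and at 16.9 and 19.2 FPKM in skmNrip1-/-. The same control library was low, and the other 4 libraries were close together. The log2 fold change was 0.19 (SE 0.36, 95% interval -0.68 to 1.05, limma adjusted p = 0.892), and -0.20 without WT control replicate 1. The intervals of both genes are wide, since the controls differed among themselves, with the highest 2.79-fold the lowest for Ppara and 2.45-fold for Ppard.

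Pparg, the adipocyte receptor (chr6:115360951-115490399, plus strand), was the lowest of the 8. It was measured at 1.72, 1.83 and 1.75 FPKM in WT control and at 1.46 and 1.66 FPKM in skmNrip1-/-. Both skmNrip1-/- libraries were below the controls, by a log2 fold change of -0.17 (SE 0.16, 95% interval -0.55 to 0.20, limma adjusted p = 0.743). Adiponectin (Adipoq), a defining adipocyte marker, was at 1.35, 0.627 and 1.33 FPKM in the controls and 1.03 and 1.16 in skmNrip1-/-, and its groups overlapped (Adipoq was named after its values were seen). The 7 adipocyte markers together summed to 133 to 202 FPKM in WT control and to 158 and 163 in skmNrip1-/-, with Lep and Retn under the level filter, and their part in the Pparg level was not tested. Most of each sum was Fabp4 alone, at 187, 150 and 120 FPKM in WT control and 145 and 150 in skmNrip1-/-. In a bulk tissue, fewer cells of a type and less RNA per cell cannot be told apart.

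Among the RXRs, Rxra (chr2:27676440-27762957, plus strand), the isotype with the broadest expression in metabolic tissues, had the smallest p of the 8. Its levels were 36.5, 38.7 and 35.7 FPKM in WT control and 27.7 and 30.9 FPKM in skmNrip1-/-. The controls lay within 1.08-fold of each other and the groups did not overlap. The mean was 37.0 ± 1.54 (SD, n = 3) against 29.3 ± 2.29 (SD, n = 2) FPKM, a ratio of 0.792. The log2 fold change was -0.34 (SE 0.10, 95% interval -0.59 to -0.09), and it did not pass the adjustment over all genes (limma adjusted p = 0.293).

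Rxrg (chr1:167598384-167639623, plus strand), the isotype enriched in skeletal muscle, was at 31.4, 22.8 and 20.9 FPKM in WT control and at 19.3 and 17.7 FPKM in skmNrip1-/-. Both skmNrip1-/- libraries were lowest, but the gap to the nearest control was smaller than the spread among the controls, of which replicate 1 was the highest. The log2 fold change, -0.41 (SE 0.18, 95% interval -0.85 to 0.03, limma adjusted p = 0.458), was the largest in size among the 8 and was -0.24 without that library.

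Rxrb (chr17:34031812-34038399, plus strand), the ubiquitous isotype, was the steadiest of the 8. It was measured at 22.8, 21.3 and 22.7 FPKM in WT control and at 24.0 and 21.9 FPKM in skmNrip1-/-. The groups overlapped, with a log2 fold change of 0.04 (SE 0.10, 95% interval -0.20 to 0.29, limma adjusted p = 0.914). The 3 RXR genes summed to 90.8, 82.8 and 79.3 FPKM in WT control and to 71.0 and 70.5 in skmNrip1-/-, a ratio of 0.839 between the means, and the groups did not overlap.

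Thra (chr11:98740638-98769006, plus strand), which encodes the main thyroid hormone receptor of skeletal muscle and also a splice form that does not bind hormone, was measured at 36.9, 39.2 and 41.6 FPKM in WT control. In skmNrip1-/- it was at 33.7 and 35.3 FPKM. Both were below the controls, with a log2 fold change of -0.18 (SE 0.10, 95% interval -0.43 to 0.06, limma adjusted p = 0.560). The annotated exons of Thra overlap those of Nr1d1, a heme-binding clock repressor on the opposite strand, by 263 nt (5.70% of the exonic bases of Thra, chr11:98768157-98768419). Strand-specific counting is not stated, so reads from the shared stretch cannot be assigned to one of the genes. Nr1d1 was at 37.9, 28.5 and 36.5 FPKM in WT control and at 35.3 and 31.9 in skmNrip1-/-, a log2 fold change of -0.02 (limma adjusted p = 0.98), and no other member has exons overlapping another gene. The gene-level value does not separate the hormone-binding splice form from the other.

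Thrb (chr14:17660261-18038090, plus strand), the isotype of the pituitary and liver, stood far below Thra in level. It was measured at 2.84, 4.70 and 4.07 FPKM in WT control and at 4.23 and 3.42 FPKM in skmNrip1-/-. The groups overlapped with nearly equal means, 3.87 ± 0.945 (SD, n = 3) and 3.83 ± 0.570 (SD, n = 2) FPKM, and the log2 fold change was 0.00 (SE 0.23, 95% interval -0.54 to 0.55, limma adjusted p = 0.996).

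**Figure D2:**
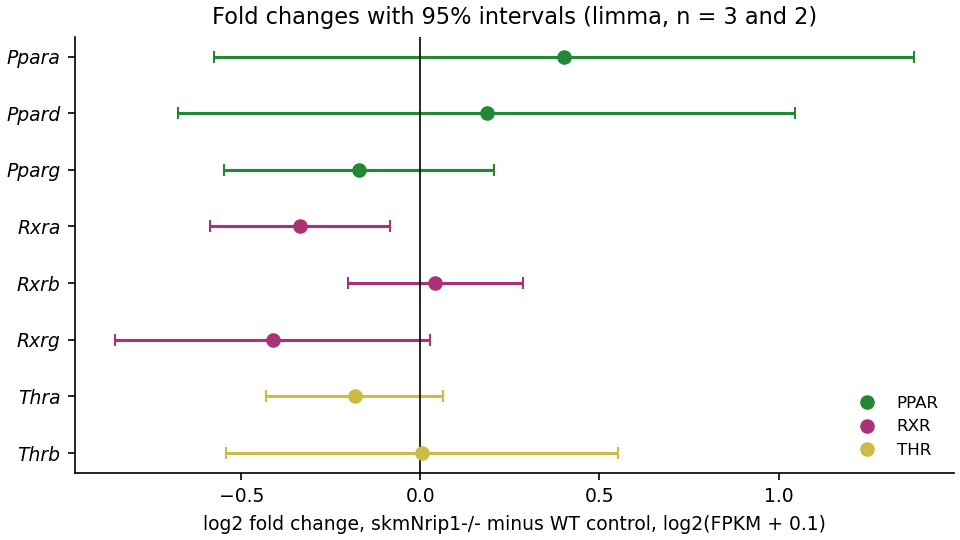
log2 fold change of each receptor gene, skmNrip1-/- minus WT control, on the log2(FPKM + 0.1) scale (limma, 3 against 2 libraries), with bars for the 95% interval. The Rxra interval, -0.59 to -0.09, is the only one of the 8 that leaves out 0, and the bars of Ppara and Ppard are the widest.

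The plot of fold changes by gene also shows how precision differed between the genes. The SE was 0.10 for Rxra, Rxrb and Thra, but 0.41 for Ppara and 0.36 for Ppard, so a change of a size visible in Rxra was not detectable in either of the last.

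The libraries differed in ways that go with transcript length and base composition. Rxra, Rxrb, Rxrg and Thra are in the GC-richest quartile of tested genes, with 57.0, 61.4, 54.6 and 59.8% GC in their longest transcripts. Genes of that quartile had median levels of 0.09, -0.03 and 0.08 log2 units in WT control and -0.05 and -0.08 in skmNrip1-/- relative to their own means. With the trends of length and GC removed from each library, a setting chosen after seeing the data, the log2 fold change was -0.27 for Rxra (limma adjusted p = 0.282), -0.35 for Rxrg, -0.06 for Thra and 0.18 for Rxrb. Pparg, which also separated and is outside that quartile (50.2% GC), had -0.16 with the trends removed. WT control replicate 1 had the highest median for the shortest quartile of transcripts (0.15) and the lowest for the longest (-0.10). Ppara and Ppard had 0.40 and 0.19 with those trends removed. The part of transcript length and GC content in any of these levels was not tested.

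On the FPKM scale, which is per length and allows levels of different genes to be set side by side, WT control TA held most Thra (39.2) and Rxra (37.0), then Rxrg (25.05), Rxrb (22.3) and Ppard (16.9), and least Ppara (6.19), Thrb (3.87) and Pparg (1.77). The ranges of neighbours in this order over the control libraries were apart between Rxra and Rxrg, between Ppard and Ppara, and between Thrb and Pparg. The ranges of the other neighbours overlapped, although within each control library Rxrg and Rxrb were the one neighbouring pair whose order changed. In skmNrip1-/- the order was the same except that Rxrb (22.9) stood above Rxrg (18.5), and of its neighbours Rxrg and Ppard (18.03) overlapped. Among the 41 nuclear receptor genes in the table, Thra ranked 4, Rxra 5, Rxrg 8, Rxrb 10 and Ppard 11 by WT control mean, whereas Ppara ranked 16, Thrb 20 and Pparg 30.

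Isotype shares compare the members of a family inside each library, so the scaling between libraries does not enter. Rxrb made up 25.1, 25.8 and 28.6% of the summed RXR FPKM in WT control and 33.8 and 31.1% in skmNrip1-/-. The groups did not overlap, and the means differed by 5.93 percentage points (26.5 ± 1.83, n = 3, against 32.4 ± 1.91, n = 2, SD; two-sided exact permutation p = 0.1, the smallest that 3 against 2 libraries can give, and 0.667 adjusted over the 8 shares). The shares of the other two were correspondingly smaller on average, at 40.2, 46.7 and 45.0% against 39.0 and 43.8% for Rxra and at 34.6, 27.5 and 26.4% against 27.3 and 25.1% for Rxrg. Both overlapped between groups.

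Ppard was the majority PPAR transcript in all 5 libraries, at 66.0, 65.3 and 71.5% of the PPAR sum in WT control and at 66.0 and 67.0% in skmNrip1-/-. WT control replicate 1, low in Ppara and Ppard alike, had an ordinary Ppard share, and its Pparg share was 12.4% beside 5.56 to 6.23% in the other 4 libraries. Thra made up 92.8, 89.3 and 91.1% of the thyroid hormone receptor sum in WT control and 88.8 and 91.2% in skmNrip1-/-, with exact permutation p = 0.5 for the difference of -1.07 points.

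**Figure D3:**
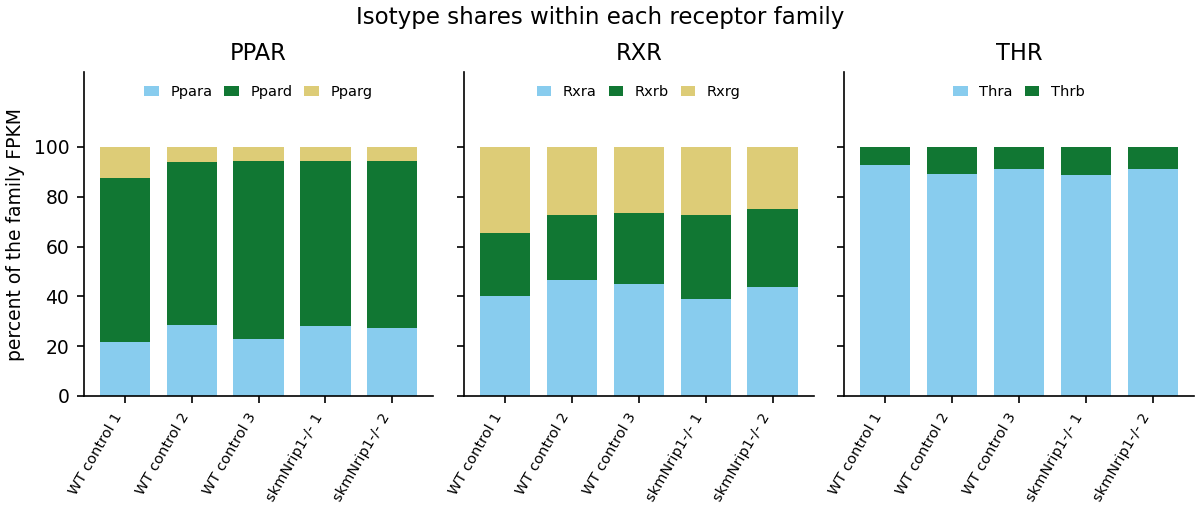
Percent of the summed FPKM of each receptor family taken by each isotype, 1 stacked bar per library (3 WT control and 2 skmNrip1-/-), which reaches 100%. Ppard fills 65.3 to 71.5% of the PPAR bars, Thra 88.8 to 92.8% of the thyroid hormone receptor bars, and the Rxrb segment is larger in both skmNrip1-/- bars than in any WT control bar.

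Likeness of profile was measured as the root-mean-square distance between genes over the 5 libraries, on log2(FPKM + 0.1) with each gene centred on its own mean. Among the 33 nuclear receptors that passed the level filter, Ppara and Ppard were each other's nearest, at 0.186 log2 units. Pparg was nearest to Rora (0.0457), an orphan receptor of circadian and lipid regulation, and Rxra and Thra were both nearest to Pparg (0.0834 and 0.0644). Thrb was nearest to the orphan receptor Nr2c2 (0.0842). Rxrg had no near nuclear receptor, the closest being Rxra at 0.223. Over all 12148 genes its nearest were Samd10 (0.0298), Tspan8 (0.0393) and Nrip2 (0.0408), genes that were also highest in WT control replicate 1 and lowest in both skmNrip1-/- libraries. These distances rest on 5 libraries and are a description.

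Among nuclear receptors outside these families, 25 of the 33 with a measured level were tested and none was called. Of these 25, 16 lay above 0 (49.9% of all genes), 6 were above (15.8%) and 2 below (14.4%) all controls without overlap, and the median log2 fold change was 0.09. The 8 receptors named above and these others were not tested against each other. Esrrb, an estrogen-related receptor, had the highest value among the 25 (log2 fold change 0.63, limma adjusted p = 0.475). Esrra, another estrogen-related receptor, had their smallest adjusted p (log2 fold change 0.36, limma adjusted p = 0.254) and was named after its values were seen. Of the 25, 4 reached an unadjusted p of 0.05 or less on the higher side (6.57% of all genes) and 1 on the lower (5.33%).

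RXR pairs with further receptors, and 7 of 11 such partners were tested. None was called, 1 of the 7 had an unadjusted p of 0.05 or less (11.9% of all genes in either direction), and the median was -0.03. Rara, a retinoic acid receptor, was at 3.55, 3.53 and 4.12 FPKM in WT control and 4.56 and 5.04 in skmNrip1-/- (log2 fold change 0.36, limma adjusted p = 0.37). The xenobiotic receptor Nr1i3 had -0.42 and the liver X receptor Nr1h2 -0.31, neither called.

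For thyroid hormone supply, which covers deiodinases, transporters and binding proteins, 6 of 10 genes were tested and none was called. The deiodinases, which activate or inactivate the hormone, were all under the level filter. Dio2, the activating enzyme of muscle, named after its values were seen, was at 0.206, 0.2996 and 0.193 FPKM in WT control and 0.171 and 0.264 in skmNrip1-/-. Crym, a cytosolic T3-binding protein, was at 2.89, 2.31 and 2.79 FPKM in WT control and 2.33 and 1.35 in skmNrip1-/- (log2 fold change -0.55, limma adjusted p = 0.458), and its groups overlapped. Slc7a8, an amino acid transporter that also carries thyroid hormone, was lower in both skmNrip1-/- libraries, at 2.78 and 2.19 FPKM beside 2.89 to 4.14 in WT control (log2 fold change -0.54, limma adjusted p = 0.374). The related transporter Slc7a5 was higher in both, at 1.06 and 0.682 beside 0.410 to 0.615 FPKM (log2 fold change 0.68, limma adjusted p = 0.452).

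Genes that handle retinoids, the source of RXR ligands, gave 7 tested of 12, with none called, none at an unadjusted p of 0.05 or less and a median of 0.11. Those that deliver fatty acids, the PPAR ligands, gave 10 tested of 10, with a median of 0.23. In that list 1 gene was called higher, where 0.37% of all genes were. It was Fabp3, the cytosolic fatty acid-binding protein of heart and muscle, at 483, 533 and 461 FPKM in WT control and at 1890 and 1841 FPKM in skmNrip1-/-. It rose by a log2 fold change of 1.92 (SE 0.12, limma adjusted p = 0.00293), and the groups stood far apart. Cd36, the membrane fatty acid translocase, was at 90.1, 149 and 101 FPKM in WT control and at 179 and 185 in skmNrip1-/- (log2 fold change 0.71, limma adjusted p = 0.279). Fabp3 and Cd36 are also counted among the textbook PPAR targets below, as are Acsl1 (log2 fold change 0.69) and Lpl (0.41). Acsl1 and Lpl were named after their values were seen. The other genes of the fatty acid list ran from -0.13 to 0.42.

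Of 11 coactivators tested none was called, and 9 lay above 0 (49.9% of all genes) with a median of 0.08. Without WT control replicate 1, 7 lay above 0 with a median of 0.04. Ppargc1b, a PGC-1 coactivator of PPAR and estrogen-related receptors, had 3.39, 4.94 and 4.39 FPKM in WT control and 6.30 and 6.49 in skmNrip1-/- (log2 fold change 0.60, SE 0.17, limma adjusted p = 0.271). Its relative Ppargc1a was level in the mean, with a log2 fold change of -0.03. Among 8 corepressors tested Nrip1 was the one called. Ncor1, which encodes NCoR, had a log2 fold change of 0.21 and was not called.

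**Figure D4:**
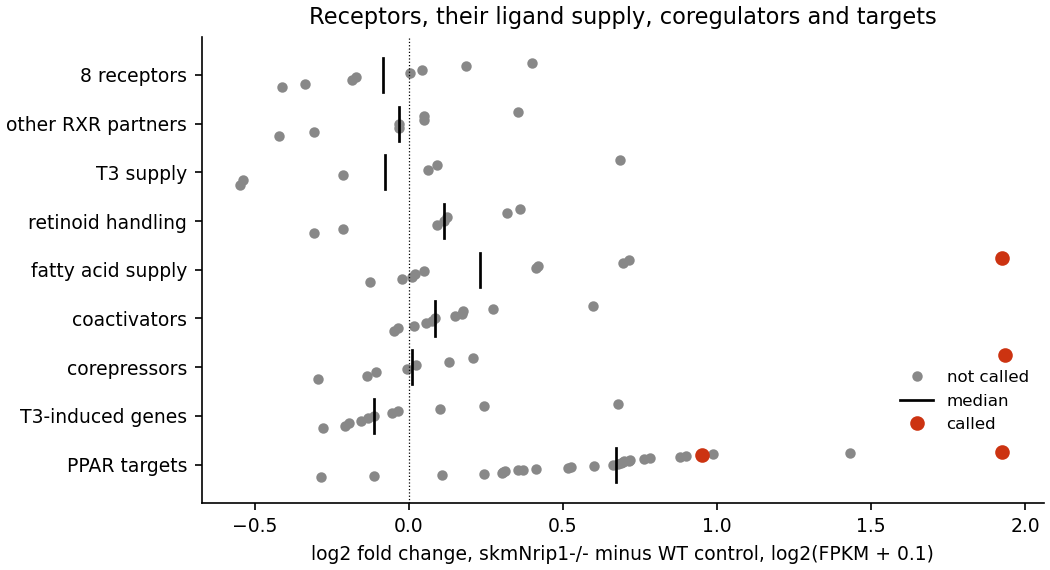
log2 fold changes, skmNrip1-/- minus WT control on the log2(FPKM + 0.1) scale, of every tested gene in the 8 receptors and 8 related lists, 1 point per gene, with a black bar at each list's median and called genes in red. The median is -0.08 for the receptors and 0.67 for the textbook PPAR targets, and the called genes are Fabp3 and Hadhb, with Fabp3 also in the fatty acid list, and Nrip1 among the corepressors.

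The genes known to be induced by T3 in muscle had log2 fold changes from -0.28 to 0.68. Of 12 genes 11 were tested, none was called, 3 lay above 0 (49.9% of all genes) and the median was -0.11. Klf9 and Hr, direct targets used as readouts of thyroid hormone receptor activity, were at 46.3, 47.4 and 52.3 and at 37.3, 38.2 and 51.5 FPKM in WT control. In skmNrip1-/- they were at 44.7 and 43.9 and at 36.8 and 40.6 FPKM, with log2 fold changes of -0.13 and -0.11, both chosen for naming after their values were seen. Myh4, the fast IIB myosin heavy chain, had -0.21 and Me1, malic enzyme, -0.28. The uncoupling protein gene Ucp3, also a PPAR target, had the highest value, at 41.9, 85.7 and 63.8 FPKM in WT control and 98.6 and 97.7 in skmNrip1-/- (log2 fold change 0.68, limma adjusted p = 0.406).

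Most textbook PPAR targets lay above 0, as did Ppara (log2 fold change 0.40) and Ppard (0.19), while Pparg lay below (-0.17). Most targets, like the 3 PPAR genes, were not called. The intervals of Ppara (-0.58 to 1.38) and Ppard (-0.68 to 1.05) included the target median of 0.67, and that of Pparg (-0.55 to 0.20) did not. Whether the targets moved apart from Ppara and Ppard was not tested. Of 30 such targets 28 were tested, and 2 were called higher (0.37% of all genes) and none lower. Of the 28, 26 lay above 0 and 23 had both skmNrip1-/- libraries above all controls, beside 15.8% of all genes, and 18 reached an unadjusted p of 0.05 or less in that direction, beside 6.57%. The median log2 fold change was 0.67. Rescaled to equal FPKM sums, the median was 0.37, where that of all genes was -0.29.

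The called pair were Fabp3, given above, and Hadhb, the β subunit of the mitochondrial trifunctional protein of fatty acid oxidation. Hadhb was at 173, 203 and 175 FPKM in WT control and at 366 and 344 in skmNrip1-/-, and it rose by a log2 fold change of 0.95 (SE 0.12, limma adjusted p = 0.0378). Plin5, which tethers lipid droplets to mitochondria, was at 8.15, 14.0 and 7.65 FPKM in WT control and at 24.7 and 27.3 in skmNrip1-/- (log2 fold change 1.43, SE 0.26, limma adjusted p = 0.111). Its groups were well apart, but it did not pass the adjustment. With either skmNrip1-/- library left out no target was called, and 6 were called without WT control replicate 2. At the low end of the list were Ucp2 (-0.29) and Plin2 (-0.11), an uncoupling protein and a lipid droplet coat protein, neither called.

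In promoter windows of these targets the half-site was found in 8 of 25 (32.0%), and none held a perfect direct repeat spaced by 1 or 4 bases. The windows of Fabp3 and Hadhb held none. Ucp3 (plus strand) had 2 in its window, and Plin5 (minus strand) had 1 in each of its 2 windows. They are shown on the gene's own strand because Ucp3 is the highest of the T3-induced list and Plin5 of the uncalled PPAR targets.
Ucp3, chr7:100472830-100472859: ttaaagagccccAGGTCAcggaagctaaac
Ucp3, chr7:100472935-100472964: gaattaggtttcAGGTCAgctggtgcacag
Plin5, chr17:56117268-56117297: gcatgagccctgAGGTCAgcgtccctgtca
Plin5, chr17:56117701-56117730: agtcctagtctgAGGTCAgccatggtgact

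**Figure D5:**
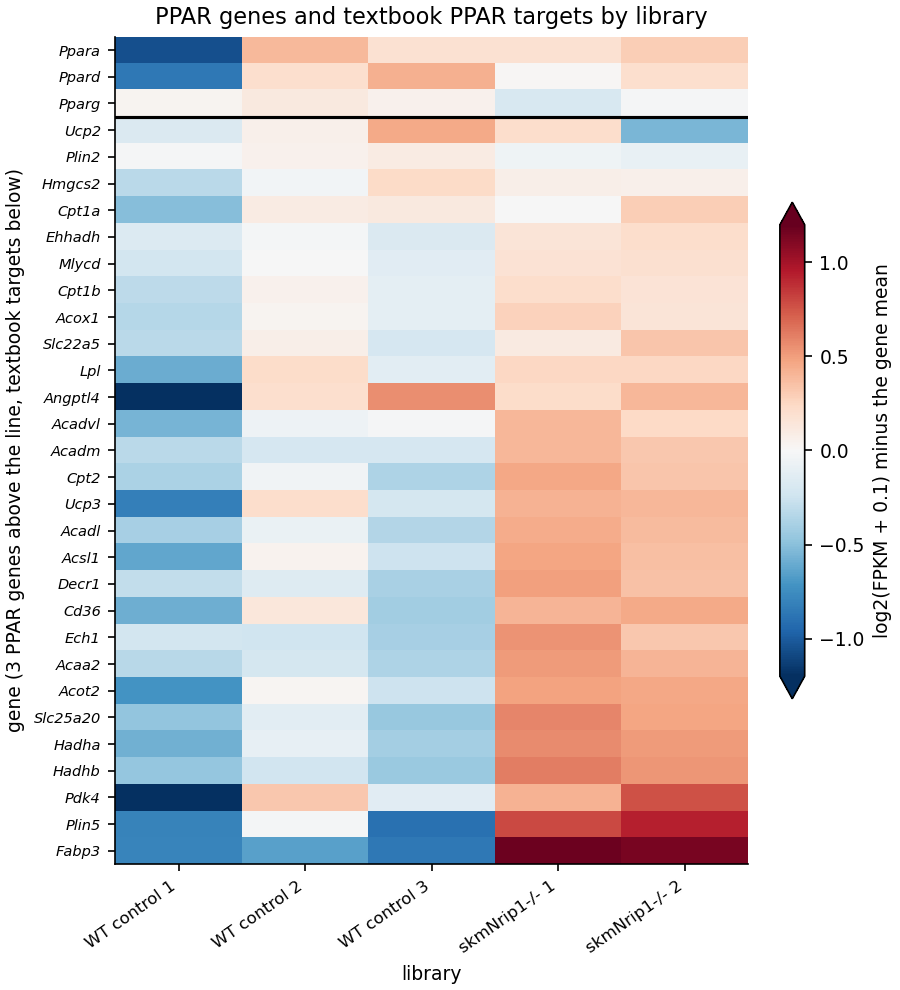
log2(FPKM + 0.1) minus each gene's own mean over the 5 TA libraries (3 WT control and 2 skmNrip1-/-), with red above and blue below that mean, for the 3 PPAR genes above the black line and the tested textbook PPAR targets below it. WT control replicate 1 is the bluest column, as for Ppara and Ppard, and the skmNrip1-/- columns are red for most targets although Ppara and Ppard there lie near or below their levels in WT control replicates 2 and 3.

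WT control replicate 1 stood apart from the other controls in the targets as in Ppara and Ppard. It was the lowest library for 20 of the 28 targets (71.4%), for 3 of the 8 receptor genes (Ppara, Ppard and Thrb) and for 26.5% of all genes. This was not particular to the targets, since it was also lowest for 7 of 11 coactivators (63.6%) and 11 of the 25 other nuclear receptors (44%). Among T3-induced genes it was lowest for 5 of 11 (45.5%), and among other RXR partners for 1 of 7 (14.3%). Where both skmNrip1-/- libraries lay above all controls, as in 23 of the 28 targets, only a control could be lowest. The shares of the targets and of all genes are not alike in that respect. The median target, centred on its own mean, was at -0.43, -0.01 and -0.21 in WT control and at 0.41 and 0.34 in skmNrip1-/-. Pdk4, the kinase that turns off pyruvate oxidation, was likewise lowest in that library, at 78.2, 255 and 185 FPKM in WT control and 272 and 345 in skmNrip1-/-. It was named after its values were seen, with a log2 fold change of 0.99 (limma adjusted p = 0.474). Without WT control replicate 1 the target median was 0.51, whereas Ppara and Ppard were at -0.05 and -0.20. Summed macrophage markers were also lowest in that library (7.24 FPKM, beside 11.1 and 15.1 in the other controls) and its summed fast-fiber markers highest (105837, beside 77206 and 81482), and their part in these values was not tested.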

How the data were processed

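RNA from TA muscle was made into libraries with the NEBNext Ultra RNA kit and read as paired ends. The authors ran Salmon 1.10.2 on mm10, collapsed transcripts to genes in tximport, and deposited an FPKM value for every gene and library. Their deposited log2 fold changes and adjusted p-values, from DESeq2 1.44.0, were not used. How the FPKM were scaled, and from which annotation, is not given in the sources used here. The deposited values are already equalised by the median of ratios (1.00 in every library), so rescaling on that basis changed nothing, and with no counts no depth or counting interval can be had. Libraries were grouped by their labels, 3 WT control and 2 skmNrip1-/-.

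FPKM were transformed to log2(FPKM + 0.1). Genes whose mean reached 0.5 FPKM were fitted with limma 3.58.1 in R 4.3.3 (eBayes with an intensity trend, no covariate), with Benjamini-Hochberg adjustment over 12148 genes. A call needed both a 1.2-fold change and an adjusted p no larger than 0.05, and fold changes of low genes are understated on this scale. Isotype shares used a two-sided exact permutation test. The fit was checked on simulated data. Positions are from GENCODE M21 (GRCm38), in which 16996 of 17015 gene IDs were found, and promoter windows from RefSeq.

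The members, lists and tests were chosen with earlier results of these data known. Named genes were the members, Nrip1, every called list gene, the 2 highest and 2 lowest of each list or some of these, nearest profiles and exon-overlapping genes. Other genes named are marked where they stand. Other pseudocounts, filters, scalings, limma settings, thresholds, the replicate number as a block and each library left out were tried. A few genes that the naming rule picked are not reported here.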

Additional observations from a re-analysis of the deposited data

How the results depend on the processing

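No member was called under any of the 18 settings tried. The sign of the log2 fold change stayed the same for Pparg, Rxra, Rxrg and Thra under all 16 of its alternatives. It reversed for Ppara without WT control replicate 1 (-0.048), for Ppard without it (-0.20) and rescaled to TPM (-0.11), for Rxrb without skmNrip1-/- replicate 1 (-0.023) and rescaled to TPM (-0.26), and for Thrb without WT control replicate 1 (-0.20), without skmNrip1-/- replicate 1 (-0.14), rescaled to TPM (-0.29) and with length and GC trends removed (-0.068). Rescaling to TPM moved the median of all genes to -0.291, so Ppard and Rxrb stayed above that median and Thrb was about level with it (-0.287). It also gave the lowest adjusted p of Rxra (limma, 0.0639 at a log2 fold change of -0.64), of Rxrg (0.0641 at -0.71) and of Thra (0.102 at -0.48).

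With 1 library left out at a time the log2 fold change ranged from -0.048 to 0.68 for Ppara, -0.20 to 0.44 for Ppard, -0.26 to -0.08 for Pparg, -0.42 to -0.26 for Rxra, -0.023 to 0.11 for Rxrb, -0.53 to -0.24 for Rxrg, -0.23 to -0.14 for Thra and -0.20 to 0.16 for Thrb. The Rxrb share difference ranged from 4.58 to 7.28 points. As a share of all 8 genes it was 2.21 points (exact permutation p = 0.2). The Ppard share difference turned to 2.23 as a share of all 8 genes and to 0.82 without WT control replicate 3 (range -2.26 to 0.82), that of Thra to 0.091 and that of Thrb to -0.091 without skmNrip1-/- replicate 1 (ranges -2.23 to 0.091 and -0.091 to 2.23).

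Genes called higher and lower, 45 and 10, were 29 and 59 rescaled to TPM, 22 and 3 without the eBayes trend, 14 and 3 at an adjusted p of 0.01, and 6 to 51 and 2 to 15 with 1 library left out (24 and 3 without WT control replicate 1, 17 and 2 without replicate 3, 8 and 7 without skmNrip1-/- replicate 1, 6 and 3 without its replicate 2), the lone skmNrip1-/- library then being assumed to vary like the controls. The 2 PPAR targets called were 1 rescaled to TPM, 1 without the trend, 1 at an adjusted p of 0.01 and 0 to 6 with 1 library left out, with 0 without either skmNrip1-/- library and 1 without WT control replicate 1 or 3. Nrip1 was not called (0 corepressors) without the trend or at an adjusted p of 0.01, and the counts with 1 library left out were 0 to 1 for corepressors and 0 to 2 for fatty acid supply. The cause was not tested.

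With the replicate number as a block 18 genes were called higher and 4 lower, 1 PPAR target and 0 corepressors. Nothing in the labels says that the number pairs the libraries, and deviations of same-numbered libraries correlated at 0.065 and 0.095 over genes. The depth behind these values is unknown, and what it limits was not tested.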
